A study of Mus musculus with 16 samples.

Results

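The response of mouse quadriceps to a single bout of maximal treadmill running was examined in animals fed a high-fat diet (HFD), by comparing the 4 libraries of HFD-post with the 4 libraries of HFD-pre, 8 of the 16 libraries of the series. The genes described were the 11256 symbols that averaged 0.5 FPKM or more across the series. FPKM expresses sequenced fragments for each kilobase of a transcript, corrected for the size of the library. All mice were males of the inbred strain C57BL/6NTac, 16 weeks old, and the sources used here name no engineered allele. HFD-post muscles were taken 3 h after the bout and HFD-pre muscles came from mice on the same diet that were accustomed to the treadmill and fasted as well, but made no maximal run. The other 8 libraries, CON-pre and CON-post, came from mice on the control diet (CON) in the same resting and exercised states, and were used for the shared estimate of the spread and for the comparison between diets. Each library was made from polyadenylated RNA of whole quadriceps, and pre and post values came from different animals. Exercised mice began a fast of 3 h in the morning, ran after it and were kept without food until collection. The study's methods give the resting mice a fast of equal length, and whether this covers the hours after the run, as well as the time of day at which resting muscles were taken, is not given in the sources used here.

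Contracting muscle fibres activate calcium- and AMP-activated kinase signalling, which acts on transcription factors and coactivators that are already in the cell. Early genes of the NR4A, AP-1 and Egr families rise and decay within hours of a bout, and coactivators such as PGC-1α then act on genes of mitochondria, fat oxidation and glucose handling. High-fat feeding by itself raises many genes of fatty acid oxidation in resting muscle through PPAR receptors.

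Summed FPKM ran from 294867 to 303652 in the HFD-pre libraries and from 283575 to 314764 in the HFD-post libraries. Counts of reads were not used, and the depth relative to HFD-pre 1, estimated from genes at low FPKM, ran from 0.933 to 1.38 in HFD-pre and from 0.969 to 1.28 in HFD-post. Skeletal muscle was the tissue in every HFD library by its defining markers: Acta1, the skeletal α-actin, lay between 12820 and 14450 FPKM and the 10 muscle markers had a median log2 change of -0.06 with 0 of 10 called. On a principal component analysis of the 8 libraries, all 4 HFD-post libraries lay on the positive side of the first component (23.1% of the variance) and all 4 HFD-pre libraries on the negative side, with HFD-pre 4 closest to the border. In whole muscle, fewer cells of a type and less RNA per cell cannot be told apart.

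Exercise on HFD up-regulated 55 genes (0.489% of those tested) and down-regulated 6 (0.0533%) at a Benjamini-Hochberg adjusted p under 0.05 in limma, a linear model fitted to log2(FPKM + 0.5) of all 16 libraries. Such genes are called DEG here, and every log2 fold change below is HFD-post minus HFD-pre on that scale, which understates the change of genes with few FPKM. It is given ± a standard error that limma took from the spread within all 4 groups (n = 4 in each). The standard error therefore includes the CON libraries and is not that of the HFD values alone. The response was narrow in number but steep at its head, since 19 of the 55 up-regulated genes rose by 1 log2 unit or more, 30 by 0.5 to 1 and 6 by less than 0.5. At an unadjusted p under 0.05, 957 genes were higher (8.50%) and 363 lower (3.22%), and 59.3% of all genes had a log2 difference above 0. The 4 values before and the 4 values after exercise did not overlap for 767 genes (6.81%), a class that held 60 of the 61 DEG, the exception being Neat1. The plot of log2 changes against p shows the excess of rises over falls among the DEG, which narrowed from 90.2% to 66.7% higher under upper-quartile or quantile scaling (40 higher and 20 lower in each) and to 75.9% under median-of-ratios scaling.

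**Figure D1:**
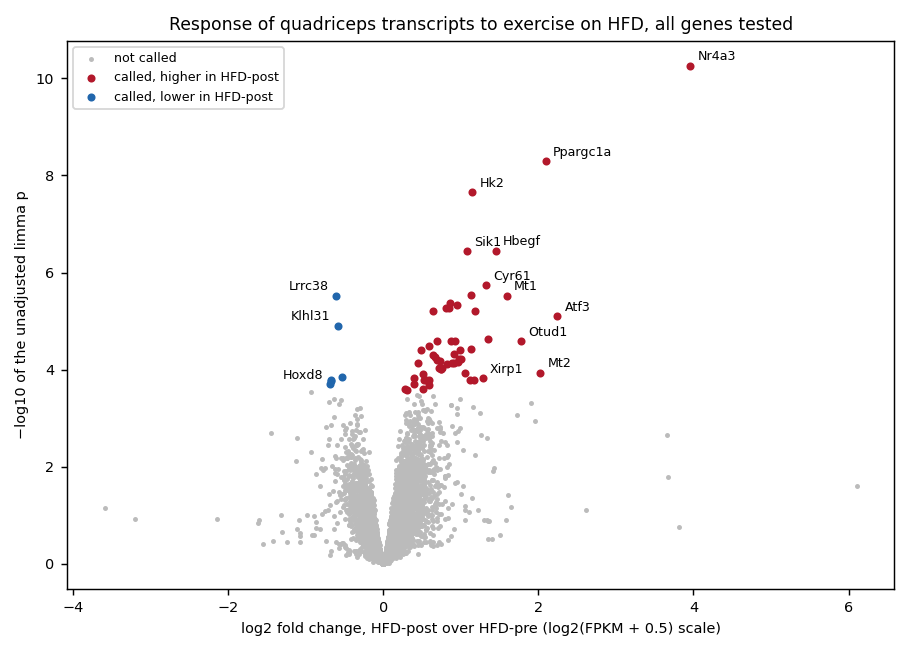
Each point is 1 of the 11256 genes tested, placed by its log2 fold change between HFD-post and HFD-pre (horizontal axis, log2(FPKM + 0.5) scale) and by the negative log10 of its unadjusted limma p (vertical axis). Red and blue points are the 55 up-regulated and 6 down-regulated DEG, and Nr4a3, Ppargc1a and Hk2 stand highest.

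HFD-post 2 held the highest of the 4 HFD-post values for 31 of the 55 up-regulated genes and HFD-post 1 the lowest for 32. HFD-post 1 was also the lowest of the 4 for 5 of the 6 down-regulated genes, so that it was the low library in both directions. The number of DEG was 21 without HFD-post 2, 21 without HFD-pre 2, 24 without HFD-post 3, 26 without HFD-pre 1, 36 without HFD-post 4 and 36 without HFD-pre 3. It was 63 without HFD-post 1 and 53 without HFD-pre 4. Of the 61 DEG, 17 kept an adjusted p under 0.05 with each of the 16 libraries left out in turn, namely Nr4a3, Atf3, Ppargc1a, Mt1, Hbegf, Cyr61, Fam134b, Hk2, Btg2, Sik1, Icosl, Adamts9, Pdxk, Tinagl1, Ahnak, Klhl31 and Lrrc38. The first 10 of these also kept it in each of the 30 alternative analyses.

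**Figure D2:**
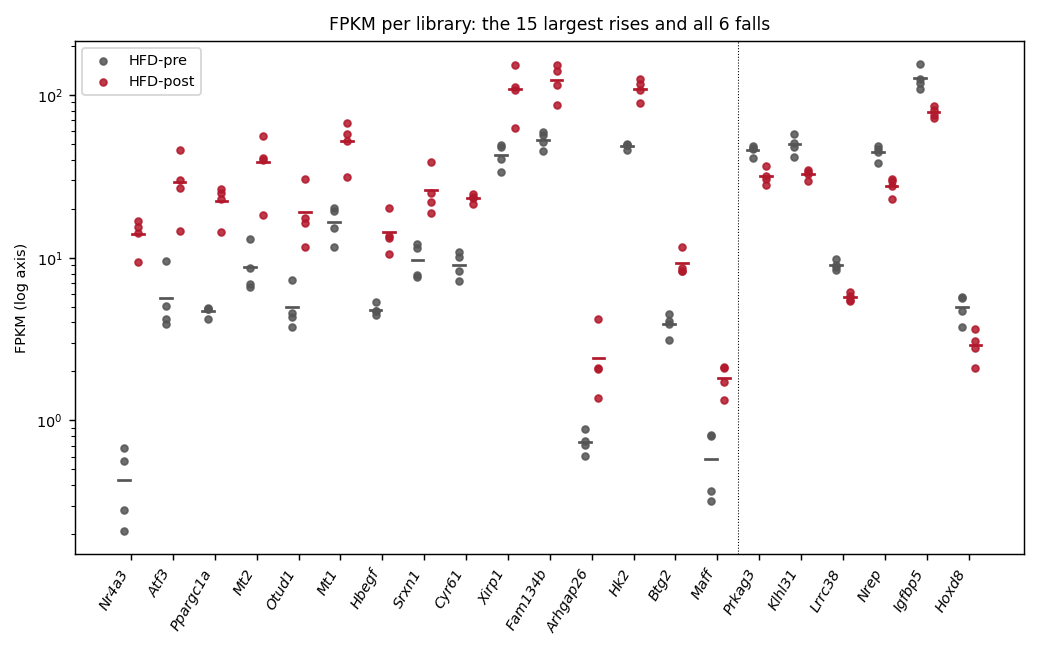
FPKM (log axis) in each HFD-pre library (grey) and HFD-post library (red) for the 15 largest rises and the 6 falls among the DEG whose groups do not overlap, with a bar at the group mean. The highest resting value of Nr4a3 was 0.680 FPKM and its lowest value after exercise 9.45 FPKM, while the 6 falls lay closer to their resting levels.

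Nr4a3, an orphan nuclear receptor of the NR4A family that is induced by contraction and cyclic AMP, had the largest change among the DEG. It measured 0.282, 0.6796, 0.2096 and 0.561 FPKM in HFD-pre 1 to 4 and 9.45, 16.9, 14.2 and 15.5 FPKM in HFD-post 1 to 4, so the transcript was close to the lower limit of the tested range at rest and well above it in every exercised muscle. The log2 fold change was 3.96 ± 0.26 (limma adjusted p = 6.13e-07), with 4 of 4 HFD-post values above every HFD-pre value. Nr4a1, the more abundant of the tested NR4A receptors by FPKM, was at 34.4, 59.6, 45.9 and 36.9 FPKM before and 35.6, 60.5, 45.3 and 45.8 FPKM after exercise, which overlap, and its log2 difference was 0.09 ± 0.22 (adjusted p = 0.914). Nr4a2 lay below the expression minimum and was not tested.

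Among the AP-1 and ATF factors, basic leucine zipper proteins that pair to bind DNA, 3 of 20 tested genes were up-regulated and 0 were down-regulated, beside 0.489% and 0.0533% of all genes. The unadjusted p was under 0.05 for 6 higher genes (30%, beside 8.50% of all genes) and 0 lower ones (beside 3.22%). Atf3, a stress-induced repressor of this group, measured 3.94, 5.08, 4.17 and 9.54 FPKM in HFD-pre 1 to 4 and 14.7, 45.9, 26.8 and 29.9 FPKM in HFD-post 1 to 4. HFD-pre 4 was the highest resting library and HFD-post 1 the lowest exercised one, and they still did not overlap (log2 fold change 2.24 ± 0.35, limma adjusted p = 0.00556). The small Maf proteins Maff and Mafk, which lack a transactivation domain and dimerize with NRF2 and related factors, rose by 1.13 ± 0.20 (adjusted p = 0.0173) and 0.87 ± 0.15 (adjusted p = 0.0133). Maff values were 0.816, 0.318, 0.368 and 0.805 FPKM before and 1.72, 2.09, 2.13 and 1.34 FPKM after, whereas Mafk was steadier at rest, with 5.47, 5.47, 5.25 and 5.73 FPKM before and 9.37, 12.8, 10.9 and 9.11 FPKM after. The Maff call was lost with any of 4 libraries left out and the Mafk call with any of 3, with a highest adjusted p of 0.0808 and 0.0678.

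Jun, the classical AP-1 subunit, measured 9.34, 13.7, 17.7 and 15.6 FPKM before and 23.6, 30.8, 26.7 and 26.99 FPKM after exercise, with no overlap, but its difference of 0.95 ± 0.23 did not pass the threshold (limma adjusted p = 0.0988). Fos, its usual partner, was at 1.69, 1.95, 1.06 and 1.68 FPKM before and 1.51, 3.93, 2.32 and 1.45 FPKM after (log2 difference 0.36 ± 0.33, adjusted p = 0.722), so only HFD-post 2 and HFD-post 3 lay above all resting values. For Junb the values were 1.52, 1.55, 2.798 and 2.67 FPKM before and 1.34, 3.603, 1.04 and 2.19 FPKM after (log2 difference -0.12 ± 0.31, adjusted p = 0.924).

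In the list of Egr, Krüppel-like, Myc and other early growth factors, 1 of 27 tested genes was up-regulated, beside 0.489% of all genes. Of the 27, 7 were higher (25.9%, beside 8.50% of all genes) and 1 lower (3.7%, beside 3.22%) at an unadjusted p under 0.05. The DEG was Btg2, an antiproliferative cofactor that p53 and growth signals induce, with 3.13, 4.495, 3.92 and 4.06 FPKM in HFD-pre 1 to 4 and 8.32, 11.7, 8.25 and 8.63 FPKM in HFD-post 1 to 4 (log2 fold change 1.14 ± 0.16, limma adjusted p = 0.00377). Egr1, a zinc finger factor of the serum response, measured 0.703, 1.02, 0.369 and 1.56 FPKM before and 1.13, 5.13, 2.95 and 2.92 FPKM after, and did not pass the test at a log2 difference of 1.26 ± 0.35 (adjusted p = 0.143). Klf5 was at 1.95, 1.08, 1.23 and 1.69 FPKM before and 1.44, 2.52, 2.24 and 1.65 FPKM after (0.31 ± 0.18, adjusted p = 0.55), and Myc at 1.13, 2.54, 1.93 and 0.824 FPKM before and 2.15, 2.83, 2.12 and 3.53 FPKM after (0.64 ± 0.23, adjusted p = 0.273). In both of these the exercised values overlapped the resting ones.

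Ppargc1a, which encodes the coactivator PGC-1α, was the second DEG by p. Its resting values were tight, 4.897, 4.87, 4.84 and 4.18 FPKM in HFD-pre 1 to 4, and rose to 14.5, 25.1, 26.5 and 22.97 FPKM in HFD-post 1 to 4, with HFD-post 1 lowest (log2 fold change 2.10 ± 0.19, limma adjusted p = 2.87e-05). Nrip1, a corepressor that opposes PGC-1α at nuclear receptors, rose as well, from 2.19, 3.43, 3.05 and 2.74 FPKM to 5.16, 4.99, 5.37 and 4.84 FPKM (0.75 ± 0.15, adjusted p = 0.0266), a call lost with any of 7 libraries left out. These were the 2 DEG among 23 tested genes of the PGC-1 list (0.489% of all genes were up-regulated), with 5 higher (21.7%, beside 8.50% of all genes) and 0 lower (beside 3.22%) at an unadjusted p under 0.05. Ppargc1b, the sister coactivator PGC-1β, measured 1.27, 1.62, 0.869 and 1.55 FPKM before and 2.104, 1.63, 1.78 and 2.46 FPKM after exercise and did not pass the test (0.46 ± 0.21, adjusted p = 0.395). No other member of the list reached the threshold, and its median log2 difference was 0.07 (0.012 under upper-quartile scaling and 0.147 without HFD-post 3) beside 0.035 over all genes tested. The median over all genes was -0.02 under upper-quartile scaling. The 78 tested respiratory chain subunits, which PGC-1α is known to raise over days, had 0 DEG by limma, with 3 higher (3.85%) and 0 lower at an unadjusted p under 0.05, beside 8.50% and 3.22% of all genes. The list had a median log2 difference of 0.06 (-0.003 under upper-quartile scaling).

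Promoter sequence is shown for 6 of the up-regulated genes, as the stretches from 250 bases before to 50 bases after an annotated transcript start in RefSeq (GRCm38.p6), as examples of the motif counted below. They were picked after the matches were seen and each holds it. Nr4a3, Ppargc1a and Hk2 had the lowest p of all genes, and the stretches of other large rises, such as that of Mt2, hold no match. Capitals mark TGACG on either strand (it reads CGTCA on the opposite strand), the core of the cyclic AMP response element to which CREB and ATF proteins bind, and the full palindrome TGACGTCA, which contains TGACG on both strands. The Nr4a3 stretch lies on chromosome 4 (chr4:48045055-48045354, plus strand) and holds 4 matches, which begin 231, 213, 205 and 147 bases before the start. That of Ppargc1a (chr5:51567676-51567975, minus strand) holds 1 match 49 bases before the start, that of Hk2 (chr6:82774405-82774704, minus strand) 1 match 50 bases before it, and that of Atf3 (chr1:191183284-191183583, minus strand) 1 match 7 bases before it. The stretches of Btg2 (chr1:134079106-134079405, minus strand) and of the Maff transcript shown (chr15:79347270-79347569, plus strand) hold the full palindrome, 166 and 29 bases before the start.
Nr4a3: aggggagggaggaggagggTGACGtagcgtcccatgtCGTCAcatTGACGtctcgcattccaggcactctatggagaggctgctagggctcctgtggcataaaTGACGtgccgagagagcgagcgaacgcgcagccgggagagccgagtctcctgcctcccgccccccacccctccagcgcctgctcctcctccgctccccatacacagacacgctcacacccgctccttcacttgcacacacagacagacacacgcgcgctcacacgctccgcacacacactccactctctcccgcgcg
Ppargc1a: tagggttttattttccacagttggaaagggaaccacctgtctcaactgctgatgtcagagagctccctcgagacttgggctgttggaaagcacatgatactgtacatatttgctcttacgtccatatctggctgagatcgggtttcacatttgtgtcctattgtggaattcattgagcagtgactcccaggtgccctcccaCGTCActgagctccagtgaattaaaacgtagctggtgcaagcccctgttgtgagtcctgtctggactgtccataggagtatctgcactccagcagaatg
Hk2: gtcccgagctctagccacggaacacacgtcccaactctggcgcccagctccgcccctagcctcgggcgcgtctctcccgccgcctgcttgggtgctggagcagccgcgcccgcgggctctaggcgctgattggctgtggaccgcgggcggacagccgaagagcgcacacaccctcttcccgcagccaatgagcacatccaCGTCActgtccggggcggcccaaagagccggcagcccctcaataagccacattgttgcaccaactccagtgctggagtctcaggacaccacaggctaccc
Atf3: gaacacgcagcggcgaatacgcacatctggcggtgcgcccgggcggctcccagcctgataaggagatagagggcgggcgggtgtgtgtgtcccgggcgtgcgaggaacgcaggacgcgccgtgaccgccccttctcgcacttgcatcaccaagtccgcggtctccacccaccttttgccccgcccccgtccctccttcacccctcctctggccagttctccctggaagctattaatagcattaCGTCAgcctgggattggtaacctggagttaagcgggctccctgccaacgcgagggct
Btg2: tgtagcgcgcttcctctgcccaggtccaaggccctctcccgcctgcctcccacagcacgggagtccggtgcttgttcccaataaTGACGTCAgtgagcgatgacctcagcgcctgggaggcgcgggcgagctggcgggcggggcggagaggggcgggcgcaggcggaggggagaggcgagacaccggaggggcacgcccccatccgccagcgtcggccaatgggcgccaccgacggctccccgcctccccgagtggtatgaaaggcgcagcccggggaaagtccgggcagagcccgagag
Maff: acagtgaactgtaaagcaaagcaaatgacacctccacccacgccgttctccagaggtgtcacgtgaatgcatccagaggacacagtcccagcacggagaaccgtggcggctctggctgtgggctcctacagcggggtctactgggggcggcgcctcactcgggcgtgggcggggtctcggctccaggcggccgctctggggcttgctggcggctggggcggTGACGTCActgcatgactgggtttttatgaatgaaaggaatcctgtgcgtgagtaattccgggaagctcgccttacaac

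Of the 61 DEG, 46 had a promoter in the RefSeq table, and TGACG occurred in the stretches of 25 of these (54.3%), beside 36.0% of the 8948 tested genes with a promoter. TGACGTCA occurred in 3 of the 46 (6.52%, Btg2, Fam134b and Maff) beside 3.62%. TGANTCA, an AP-1-like motif that allows any base at N, was searched on both strands and found in 5 (10.9%) beside 6.06%. This is wider than the AP-1 site itself, and the match in Tinagl1 reads TGAATCA. The E-box CACGTG was found in 7 (15.2%) beside 12.2%, and the FoxO motif GTAAACA in 3 (6.52%) beside 3.12%. AAAGGTCA, a nuclear receptor site, was in 0 of the 46 beside 1.13%, and TATAAA in 2 (4.35%) beside 9.32%. A gene with several promoters counted once if any of them held the letters. These are matches of letters in short windows and no test was made of them.

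The metallothioneins, small cysteine-rich proteins that buffer zinc and are raised by glucocorticoids, were among the largest rises. Mt2 measured 6.65, 8.63, 13.1 and 6.89 FPKM in HFD-pre 1 to 4 and 18.4, 56.3, 40.9 and 39.9 FPKM in HFD-post 1 to 4, and Mt1 measured 19.4, 20.2, 15.3 and 11.7 FPKM before and 31.3, 66.9, 57.5 and 51.9 FPKM after. In both genes HFD-post 1 was the lowest exercised library and lay above all resting ones. The log2 fold change was 2.02 ± 0.40 for Mt2 (limma adjusted p = 0.0299) and 1.59 ± 0.23 for Mt1 (adjusted p = 0.00377), and the Mt2 call was lost with any of 6 libraries left out (highest adjusted p 0.132, without HFD-post 2). These genes are closely related in sequence, so that their reads could have been split between them. Srxn1, sulfiredoxin, which repairs oxidized peroxiredoxins and is a target of NRF2, rose from 11.4, 7.78, 7.67 and 12.1 FPKM to 18.7, 38.7, 22 and 24.9 FPKM (1.35 ± 0.23, adjusted p = 0.0133), and this call was lost without HFD-pre 2 (adjusted p = 0.0588). They were the 3 DEG among 31 tested metallothionein, antioxidant and NRF2 target genes (0.489% of all genes were up-regulated), and the list's median log2 difference was 0.14, beside 0.035 over all genes. The list median was 0.06 under quantile scaling, beside -0.015 over all genes, and 0.19 without HFD-pre 4. Of the 31, 7 were higher (22.6%, beside 8.50% of all genes) and 0 lower (beside 3.22%) at an unadjusted p under 0.05.

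Hk2, hexokinase II, which traps glucose as glucose 6-phosphate in muscle, was the third DEG by p. It rose from 50.1, 49.04, 45.8 and 49.4 FPKM in HFD-pre 1 to 4 to 89.01, 125, 116 and 107 FPKM in HFD-post 1 to 4 (log2 fold change 1.15 ± 0.11, limma adjusted p = 8.37e-05), so that the resting muscles were close together and every exercised muscle lay far above them. It was the 1 DEG among 44 tested genes of glucose uptake, glycolysis and glycogen, beside 0.489% of all genes. At an unadjusted p under 0.05, 3 were higher (6.82%) and 2 lower (4.55%), which is near the shares of all genes (8.50% and 3.22%). The median log2 difference of 0.045 turned to -0.02 under upper-quartile and -0.03 under quantile scaling, where that of all genes was -0.02 and -0.015. Slc2a4, the insulin-regulated transporter GLUT4, was at 119.8, 129, 122 and 111 FPKM before and 133, 119.6, 142 and 141 FPKM after exercise (0.15 ± 0.07, adjusted p = 0.449). Pfkfb3, whose product makes the activator of phosphofructokinase, went the other way without passing the test, from 47.02, 49.7, 53.4 and 52.4 FPKM to 21.04, 25.4, 25.8 and 21.1 FPKM (-1.11 ± 0.31, adjusted p = 0.155), although its groups did not overlap. The standard error includes the spread of the CON libraries.

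Most genes of fatty acid oxidation and PPAR targets had slightly higher values after exercise. Of 47 tested members, 44 were higher in HFD-post (93.6%, beside 59.3% of all genes) and 1 was a DEG. At an unadjusted p under 0.05, 20 were higher (42.6%, beside 8.50% of all genes) and 0 lower (beside 3.22%). The median log2 difference was 0.23, beside 0.035 over all genes, and stayed between 0.17 and 0.27 under the alternatives. Pnpla2, the adipose triglyceride lipase, measured 62.5, 66.8, 66.2 and 63.4 FPKM before and 99.1, 79.1, 84.3 and 81.8 FPKM after exercise (0.40 ± 0.09, limma adjusted p = 0.0775). Plin5, a lipid droplet coat that tethers droplets to mitochondria, measured 14.4, 10.1, 13.6 and 16.3 FPKM before and 24.5, 16.9, 18.3 and 19.5 FPKM after (0.54 ± 0.23, adjusted p = 0.359). Both genes were higher in every exercised muscle than in any resting one.

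Pdk4, the kinase that shuts pyruvate dehydrogenase in favour of fat, was at 240.4, 336, 386 and 302 FPKM in HFD-pre 1 to 4 and 502, 531, 405 and 292 FPKM in HFD-post 1 to 4 (0.44 ± 0.21, limma adjusted p = 0.438), with HFD-post 4 inside the resting range. Ucp3, a mitochondrial carrier protein of muscle, was at 67.3, 87.1, 104 and 82.1 FPKM before and 107, 115, 110.3 and 80.2 FPKM after (0.28 ± 0.16, adjusted p = 0.528), again with HFD-post 4 inside the resting range. Angptl4, a secreted inhibitor of lipoprotein lipase, measured 5.09, 5.19, 6.05 and 6.16 FPKM before and 7.46, 14.9, 8.39 and 7.93 FPKM after (0.68 ± 0.23, adjusted p = 0.264), and HFD-post 2 stood apart from the other exercised muscles. G0s2, an inhibitor of adipose triglyceride lipase that was in no list, rose from 7.74, 5.16, 8.02 and 8.57 FPKM to 16.4, 10.5, 15.9 and 13.5 FPKM (0.89 ± 0.17, adjusted p = 0.0224), and this call was lost with any of 5 libraries left out.

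Markers of fat and of slow fibres were read beside these genes. Of 14 adipocyte markers, which include the PPAR targets Cidec and Fabp4, 12 were higher in HFD-post, 0 were DEG and the median log2 difference was 0.39 (0.185 without HFD-post 4 to 0.55 without HFD-post 1, leaving aside the fit with their own score), with a summed level of 832.8 to 980.8 FPKM in HFD-pre and 690.7 to 1335 FPKM in HFD-post. Adipoq, which encodes adiponectin and defines fat cells, measured 22.3, 17.3, 15.4 and 18.2 FPKM in HFD-pre 1 to 4 and 13.2, 34.8, 19.5 and 45.4 FPKM in HFD-post 1 to 4, so that HFD-post 4 and HFD-post 2 were high and HFD-post 1 low. The 12 slow-fibre and cardiac markers were all higher in HFD-post (median 0.27, 0 DEG), and their mean centred level was -0.79, -0.44, 0.21 and -0.14 log2 units in HFD-pre 1 to 4 and 0.83, -0.25, 0.17 and -0.72 in HFD-post 1 to 4, so that the groups overlapped. The mean centred level of the fatty acid list was 0.04, -0.03, 0.07 and 0.19 log2 units in HFD-pre 1 to 4 and 0.37, 0.34, 0.26 and 0.29 in HFD-post 1 to 4. HFD-post 1 was the highest library for both the slow-fibre and the fatty acid list. The median log2 difference of the fatty acid list was 0.21 with the adipocyte score as a covariate and 0.21 with the slow-fibre score. With the adipocyte score 25 genes were DEG (20 higher and 5 lower), 24 of them among the 61.

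**Figure D3:**
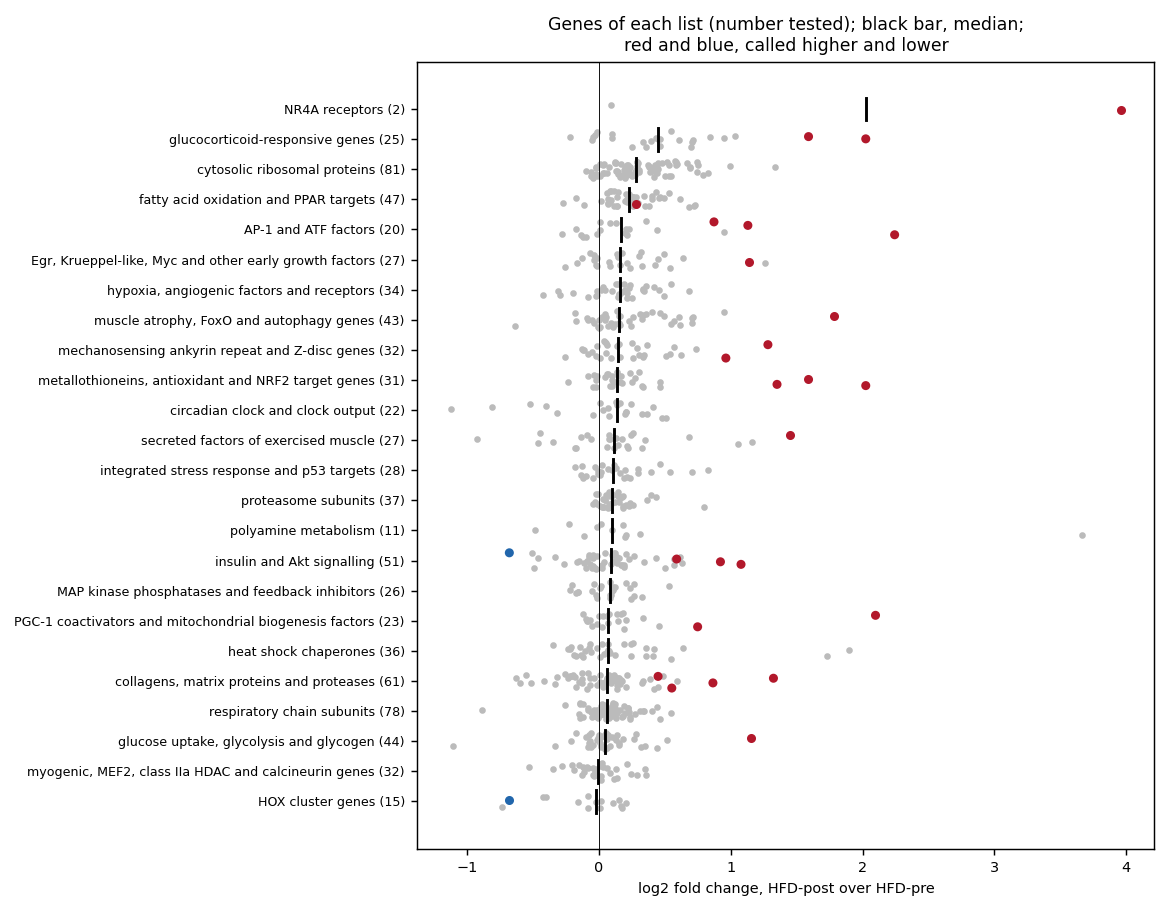
Log2 fold change between HFD-post and HFD-pre (horizontal axis) of every tested gene in 24 pathway lists, with the number tested in parentheses, the list median as a black bar, and DEG in red (up-regulated) or blue (down-regulated); vertical scatter within a list is only to separate points. Up-regulated DEG are mostly single genes at the right of their lists, while 44 of 47 genes of the fatty acid list, 20 of 25 of the glucocorticoid list and 73 of 81 of the ribosomal protein list lie to the right of 0, beside 59.3% of all genes.

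Genes of insulin and Akt signalling gave 3 up-regulated and 1 down-regulated DEG among 51 tested, beside 0.489% and 0.0533% of all genes. Of the 51, 11 were higher (21.6%, beside 8.50% of all genes) and 3 lower (5.88%, beside 3.22%) at an unadjusted p under 0.05. Sik1, a salt-inducible kinase that phosphorylates CREB coactivators and class IIa HDACs, rose from 1.35, 1.77, 1.86 and 1.71 FPKM to 2.86, 5.005, 4.75 and 3.97 FPKM (log2 fold change 1.08 ± 0.13, limma adjusted p = 8.25e-04). Eif4ebp1, the translation repressor that mTORC1 inactivates, rose from 17.5, 15.8, 22.7 and 18.7 FPKM to 33.8, 35.5, 41.4 and 32.04 FPKM (0.92 ± 0.16, adjusted p = 0.0133). The call for Eif4ebp1 was lost with any of 4 libraries left out, with a highest adjusted p of 0.0598. Igfbp5, a binding protein that holds insulin-like growth factors, fell, from 155, 125, 118 and 109 FPKM to 72.5, 74.9, 85.2 and 81.5 FPKM (log2 fold change -0.68 ± 0.14, adjusted p = 0.0356).

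The docking proteins of the insulin receptor pointed in opposite directions without passing the test. Irs1 was at 4.98, 4.76, 4.66 and 5.98 FPKM before and 2.91, 3.37, 3.92 and 3.51 FPKM after exercise (-0.51 ± 0.19, limma adjusted p = 0.308), which do not overlap. Its standard error includes CON-pre, where the SD was 2.08 FPKM, beside 0.61 in HFD-pre and 0.41 in HFD-post. Irs2 was at 1.68, 2.77, 2.29 and 2.57 FPKM before and 2.497, 5.02, 3.61 and 4.61 FPKM after (0.63 ± 0.17, adjusted p = 0.14), where HFD-post 1 lay within the resting range.

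Among 43 tested genes of muscle atrophy, FoxO signalling and autophagy, 1 was up-regulated, 15 were higher (34.9%, beside 8.50% of all genes) and 1 lower (2.33%, beside 3.22%) at an unadjusted p under 0.05, and the median log2 difference was 0.155. The DEG was Otud1, a deubiquitinase, with 4.59, 3.77, 4.35 and 7.299 FPKM before and 11.6, 30.4, 16.5 and 17.4 FPKM after (1.78 ± 0.31, limma adjusted p = 0.0133), and its call was lost with any of 3 libraries left out (highest adjusted p 0.0598). The muscle ubiquitin ligases were higher in every exercised muscle without passing the threshold. Trim63 (MuRF1) measured 135, 139.8, 174 and 88.6 FPKM before and 217, 336, 281 and 201 FPKM after (0.95 ± 0.23, adjusted p = 0.0877), and Fbxo32 (atrogin-1) measured 57.4, 44.6, 58.1 and 40.3 FPKM before and 83.97, 83.4, 78.7 and 59.6 FPKM after (0.61 ± 0.18, adjusted p = 0.175). Fam134b, a receptor for autophagy of the endoplasmic reticulum that was in no list, rose from 51.2, 59.5, 56.8 and 45.05 FPKM to 86.96, 154, 139.9 and 115 FPKM (1.19 ± 0.18, adjusted p = 0.0047) and kept its call in every alternative.

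The 25 tested glucocorticoid-responsive genes had the largest median of the pathway lists outside the NR4A pair, 0.45, with 2 DEG (beside 0.489% of all genes up-regulated), Mt1 and Mt2, of which Mt2 lost its call with any of 6 libraries left out. At an unadjusted p under 0.05, 12 were higher (48%, beside 8.50% of all genes) and 0 lower (beside 3.22%). Their mean level, centred for each gene over the 16 libraries, ran from -0.40 to -0.01 log2 units in HFD-pre and from 0.23 to 0.28 in HFD-post, so that the exercised muscles were more alike than the resting ones. Fkbp5, a classical target of the receptor, measured 10.4, 15.2, 20.98 and 10.8 FPKM before and 26.4, 21.4, 34.8 and 34.5 FPKM after (log2 difference 1.03 ± 0.31, limma adjusted p = 0.191). The list shares Trim63 and Fbxo32 with the atrophy genes.

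No heat shock chaperone was a DEG among 36 tested by limma, while 9 were higher (25%, beside 8.50% of all genes) and 2 lower (5.56%, beside 3.22%) at an unadjusted p under 0.05. Hspa1b measured 2.77, 2.58, 1.98 and 5.15 FPKM in HFD-pre 1 to 4 and 6.71, 29.3, 10.5 and 11.1 FPKM in HFD-post 1 to 4, and Hspa1a 3.75, 3.74, 3.33 and 5.303 FPKM and 8.63, 30.1, 11.01 and 14.6 FPKM. HFD-post 2 was the highest library for both of these copies of inducible Hsp70, whose reads could have been split, and neither passed the threshold (1.90 ± 0.44, adjusted p = 0.0755, and 1.73 ± 0.42, adjusted p = 0.101).

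Genes at the Z-disc and of mechanical sensing gave 2 up-regulated DEG among 32, beside 0.489% of all genes. Of the 32, 8 were higher (25%, beside 8.50% of all genes) and 1 lower (3.12%, beside 3.22%) at an unadjusted p under 0.05. Xirp1, an actin-binding repeat protein of remodelling myofibrils, rose from 48.1, 40.5, 33.4 and 49.3 FPKM to 62.8, 154, 107 and 112 FPKM (log2 fold change 1.28 ± 0.26, limma adjusted p = 0.0347), and Enah, an actin filament elongation factor, from 4.16, 4.15, 3.29 and 5.28 FPKM to 6.77, 11.5, 8.19 and 8.56 FPKM (0.96 ± 0.18, adjusted p = 0.0224). Abra (STARS), an actin-binding activator of serum response factor that was in no list, rose from 94.3, 98.2, 85.6 and 85.2 FPKM to 108, 166, 177 and 169.8 FPKM (0.75 ± 0.15, adjusted p = 0.0266), with HFD-post 1 well below the other 3 exercised muscles. The lowest exercised value of all 3 genes was in HFD-post 1. The calls were lost with any of 7, 6 and 7 libraries left out for Xirp1, Enah and Abra, with highest adjusted p of 0.139, 0.0994 and 0.113, each without HFD-post 2.

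Secreted and matrix genes held several of the steadier rises. Hbegf, a membrane-bound ligand of the epidermal growth factor receptor, was the 1 DEG among 27 tested secreted factors (beside 0.489% of all genes) and rose from 4.72, 4.44, 4.71 and 5.35 FPKM to 10.6, 20.1, 13.2 and 13.5 FPKM (log2 fold change 1.45 ± 0.17, limma adjusted p = 8.25e-04). In that list 4 were higher (14.8%, beside 8.50% of all genes) and 2 lower (7.41%, beside 3.22%) at an unadjusted p under 0.05. Among 61 collagens, matrix proteins and proteases, 4 were up-regulated and 0 down-regulated, beside 0.489% and 0.0533% of all genes. The unadjusted p was under 0.05 for 6 higher genes (9.84%) and 1 lower gene (1.64%), which is near the shares of all genes (8.50% and 3.22%). Cyr61, a matricellular protein and target of YAP, rose from 10.8, 7.16, 10.04 and 8.24 FPKM to 23.4, 21.4, 24.5 and 23.5 FPKM (1.32 ± 0.18, adjusted p = 0.00342), with the exercised muscles close together. Adamts9, a protease of the versican-cleaving group, rose from 0.753, 0.566, 0.505 and 0.684 FPKM to 1.16, 1.74, 1.94 and 1.44 FPKM (0.86 ± 0.13, adjusted p = 0.0047).

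The other 2 matrix DEG were smaller in fold. Timp3, an inhibitor of such proteases, rose from 38.1, 42.1, 38.4 and 42.5 FPKM to 50.3, 62.2, 62.2 and 63.4 FPKM (0.55 ± 0.11, limma adjusted p = 0.0347), and Lama5, a laminin chain of vessel basement membrane, from 2.47, 2.18, 2.66 and 2.38 FPKM to 3.29, 3.63, 3.54 and 3.47 FPKM (0.45 ± 0.09, adjusted p = 0.0224). Pecam1, an adhesion molecule of endothelium, rose from 18.6, 15.4, 14.9 and 18.1 FPKM to 22.3, 22.5, 20.8 and 22.6 FPKM (0.39 ± 0.08, adjusted p = 0.0347), while the 10 endothelial markers had a median of 0.04 (-0.02 under upper-quartile scaling) with 5 higher and 5 lower. Cdh5, the endothelial cadherin, was at 17.6, 17.2, 16.7 and 17.99 FPKM before and 16.9, 16.8, 14.4 and 15.6 FPKM after. The calls of Timp3, Lama5 and Pecam1 were lost with any of 8, 6 and 6 libraries left out. Vegfa, the main angiogenic ligand of muscle, was at 57.5, 70.05, 55.1 and 58.05 FPKM before and 64.2, 68.8, 67.8 and 61.6 FPKM after (0.13 ± 0.08, adjusted p = 0.552), and 0 of 34 tested hypoxia and angiogenic genes were DEG by limma, with 7 higher (20.6%) and 1 lower (2.94%) at an unadjusted p under 0.05, beside 8.50% and 3.22% of all genes.

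Other DEG belonged to none of the lists. Arhgap26, a GTPase-activating protein, rose from 0.602, 0.8905, 0.7504 and 0.711 FPKM to 1.37, 2.06, 4.19 and 2.11 FPKM (log2 fold change 1.17 ± 0.24, limma adjusted p = 0.0347), with HFD-post 3 highest, and lost its call with any of 9 libraries left out. Npr3 and Neat1 below lost theirs with any of 5 and 11. Icosl, a costimulatory ligand for T cells, rose from 0.606, 0.499, 0.693 and 0.644 FPKM to 1.09, 2.21, 1.64 and 1.83 FPKM (0.96 ± 0.14, adjusted p = 0.0047), and Npr3, the clearance receptor for natriuretic peptides, from 1.84, 1.14, 1.52 and 1.62 FPKM to 2.32, 2.91, 3.002 and 4.24 FPKM (0.82 ± 0.15, adjusted p = 0.0224). Ahnak, a large scaffold protein, rose from 22.8, 19.1, 22.4 and 25.2 FPKM to 28.3, 37.4, 36.1 and 38.4 FPKM (0.64 ± 0.10, adjusted p = 0.0047). Neat1, a nuclear RNA that builds paraspeckles, rose from 176, 198, 192 and 217 FPKM to 214, 279.7, 272 and 272 FPKM (0.40 ± 0.08, adjusted p = 0.0399), and HFD-post 1 lay inside the resting range.

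The 6 down-regulated genes fell by 0.53 to 0.68 on the log2 scale. Lrrc38, an auxiliary subunit of calcium-activated potassium channels, fell from 8.98, 9.86, 8.39 and 8.79 FPKM to 5.48, 5.43, 5.81 and 6.18 FPKM (log2 fold change -0.61 ± 0.09, limma adjusted p = 0.00377), and Klhl31, a Kelch protein of striated muscle, from 58.01, 51.1, 48.1 and 41.8 FPKM to 29.6, 33.8, 34.7 and 32.9 FPKM (-0.59 ± 0.10, adjusted p = 0.00825). Prkag3, the regulatory γ3 subunit of AMP-activated kinase found in fast glycolytic fibres, fell from 47.1, 48.6, 41.3 and 46.3 FPKM to 28.2, 30.5, 31.9 and 36.5 FPKM (-0.53 ± 0.11, adjusted p = 0.0347). Nrep fell from 44.5, 46.8, 38.1 and 48.4 FPKM to 22.99, 30.6, 27.6 and 29.6 FPKM (-0.68 ± 0.14, adjusted p = 0.0347) and Hoxd8 from 4.73, 3.74, 5.74 and 5.64 FPKM to 2.11, 3.66, 2.8 and 3.07 FPKM (-0.68 ± 0.14, adjusted p = 0.0399). In 5 of the 6 genes HFD-post 1 was the lowest library. Apart from Lrrc38 and Klhl31, the calls were lost with any of 6 to 11 libraries left out, Igfbp5 included.

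Hoxd8, a positional homeobox factor, was the 1 DEG among 15 tested HOX genes (0.0533% of all genes were down-regulated), of which 4 were lower (26.7%, beside 3.22% of all genes) and 0 higher (beside 8.50%) at an unadjusted p under 0.05. The list median was -0.02, with 7 members higher and 8 lower in HFD-post, and ran from -0.105 to 0.029 under the alternatives. Among 22 circadian clock genes, 0 were DEG by limma and 4 were higher and 4 lower (18.2% each, beside 8.50% and 3.22% of all genes) at an unadjusted p under 0.05. Nr1d1 (REV-ERBα), a repressor in the clock loop, measured 63.6, 53.8, 52.01 and 35.6 FPKM before and 14.2, 29.3, 18.5 and 34.9 FPKM after (log2 difference -1.12 ± 0.37, adjusted p = 0.24). Arntl (BMAL1), the gene it represses, measured 7.96, 5.54, 5.05 and 3.81 FPKM before and 2.47, 3.03, 2.94 and 3.09 FPKM after (-0.81 ± 0.33, adjusted p = 0.339). Neither gene overlapped between groups. Per1, another clock gene, was at 11.1, 13.3, 16.9 and 9.88 FPKM before and 11.9, 11.3, 10.6 and 15.1 FPKM after. Any part of the time of sampling in these values was not tested.

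Most cytosolic ribosomal protein genes had higher values after exercise, with 0 DEG by limma. Of 81 tested, 73 were higher in HFD-post (90.1%, beside 59.3% of all genes). At an unadjusted p under 0.05, 27 were higher (33.3%, beside 8.50% of all genes) and 0 lower (beside 3.22%), and the median log2 difference was 0.28 (0.21 to 0.35 under the alternatives). The mean centred level was -0.45 to 0.07 log2 units in HFD-pre and 0.00 to 0.19 in HFD-post, so that 1 resting library lay inside the exercised range. Many of these genes have near-identical pseudogenes to which reads can be assigned. Rps28, with the largest log2 difference of the list, measured 3.54, 3.902, 2.603 and 10.9 FPKM before and 15.4, 13.5, 16.6 and 6.198 FPKM after (1.33 ± 0.37, limma adjusted p = 0.155). The 37 proteasome subunits had 0 DEG, 7 higher (18.9%) and 0 lower at an unadjusted p under 0.05, and a median of 0.10 (0.025 under quantile scaling and 0.158 without HFD-post 1).

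In the remaining lists the counts were small, and those at an unadjusted p under 0.05 are given beside 8.50% higher and 3.22% lower of all genes. The 26 MAP kinase phosphatases and feedback inhibitors had 0 DEG by limma (3 higher, 11.5%, which is near the share of all genes, and 0 lower), and Dusp10, a phosphatase for JNK and p38, was at 9.73, 14.6, 12.1 and 11.8 FPKM before and 13.7, 13.1, 13.6 and 11.1 FPKM after. The 32 myogenic, MEF2, class IIa HDAC and calcineurin genes had 0 DEG (3 higher, 9.38%, and 5 lower, 15.6%). Hdac5, a class IIa deacetylase that represses MEF2, was at 11.04, 10.2, 9.68 and 10.9 FPKM before and 12.99, 13.7, 12.9 and 12.02 FPKM after, and Mef2c, a MEF2 factor, at 103, 96.1, 97.9 and 99.5 FPKM before and 92.9, 94.6, 82.04 and 93.7 FPKM after. The groups did not overlap for either, in opposite directions, with adjusted p of 0.183 and 0.441. The 28 genes of the integrated stress response and of p53 had 0 DEG (6 higher, 21.4%, and 1 lower, 3.57%). Cited2, a transcriptional coregulator, was at 17.6, 11.4, 12.1 and 14.3 FPKM before and 16.2, 15.6, 13.9 and 15.7 FPKM after, and Trp63, a p53 relative, at 2.66, 3.31, 2.76 and 2.05 FPKM before and 2.17, 2.701, 5.61 and 3.16 FPKM after.

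Among the 11 polyamine genes 0 were DEG by limma (1 higher and 1 lower at an unadjusted p under 0.05), and Amd1 and Amd2, copies of S-adenosylmethionine decarboxylase, are near-identical. Amd1 was at 21.98, 11.8, 0.0465 and 14.2 FPKM in HFD-post 1 to 4 and 0.0447, 0.0477, 0.0444 and 0.0328 FPKM in HFD-pre 1 to 4, with HFD-post 3 at the resting level, while Amd2 went from 288, 252, 270 and 278 FPKM to 188, 215, 207 and 168 FPKM. Neither passed the threshold (limma adjusted p = 0.143 and 0.14), and their values are uncertain because reads can be assigned to either copy.

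**Figure D4:**
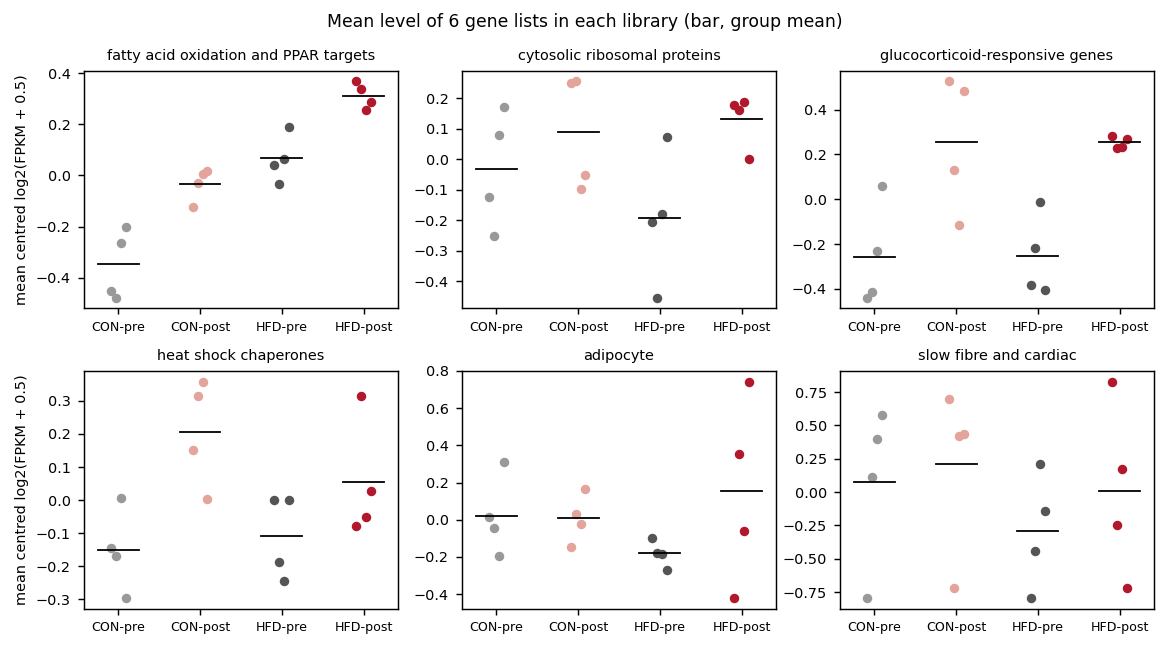
Mean level of 6 gene lists in each of the 16 libraries (each gene's log2(FPKM + 0.5) minus its mean over all libraries, averaged over the list; a bar marks the group mean). HFD-post lay above HFD-pre without overlap for the fatty acid and glucocorticoid lists, and overlapped it for ribosomal proteins, heat shock chaperones, adipocyte and slow-fibre markers.

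No gene passed the adjusted test of a difference between the responses on HFD and on CON. The interaction of diet and exercise gave 0 calls by limma (smallest adjusted p 0.926) and 356 genes at an unadjusted p under 0.05 (3.16%), 238 of which had the higher log2 change on HFD. With no effect in any gene, a share of about 0.05 would be reached, so that 3.16% is no excess. On CON 125 genes were called (1.11%), 42 of which were called on HFD as well, 68.9% of the HFD set and 33.6% of the CON set. Of the 61 DEG on HFD, 60 had the same sign on CON, the exception being Npr3 with a log2 change of -0.02 on CON. The 2 responses were measured on separate animals, and genes past the threshold in 1 diet were not thereby shown to differ.

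For 12 of the 61 DEG the unadjusted interaction p was under 0.05, beside 3.16% of all genes, with 7 of larger and 5 of smaller log2 change on HFD. These genes were chosen by their change on HFD, which is part of the interaction, so that a larger change on HFD follows in part from the choice. Interactions are given as the log2 change on HFD minus that on CON, with the 95% interval. Nr4a3 rose by a log2 of 3.03 on CON (interaction 0.93, 0.15 to 1.71), and its FPKM averaged 0.433 ± 0.224 in HFD-pre, 1.201 ± 0.423 in CON-pre, 14.01 ± 3.23 in HFD-post and 13.7 ± 5.01 in CON-post (mean ± SD, n = 4). The means of the diets lay closer together after exercise than at rest. G0s2 had a log2 change of 0.16 on CON (interaction 0.73, 0.22 to 1.24), and Npr3 averaged 0.917 ± 0.2102 FPKM in CON-pre and 0.889 ± 0.105 FPKM in CON-post (interaction 0.84, 0.37 to 1.30). Icosl (0.49, 0.06 to 0.92), Ahnak (0.37, 0.08 to 0.66) and Neat1 (0.38, 0.13 to 0.63) had larger rises on HFD and Hoxd8 a larger fall (-0.53, -0.95 to -0.10). The smaller rises on HFD were those of Otud1 (-1.13, -2.05 to -0.21), Xirp1 (-1.07, -1.85 to -0.29), Enah (-0.82, -1.36 to -0.27), Abra (-0.61, -1.05 to -0.17) and Cyr61 (-0.55, -1.10 to 0.00). The scatter of both diets' log2 changes shows these genes off the diagonal.

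**Figure D5:**
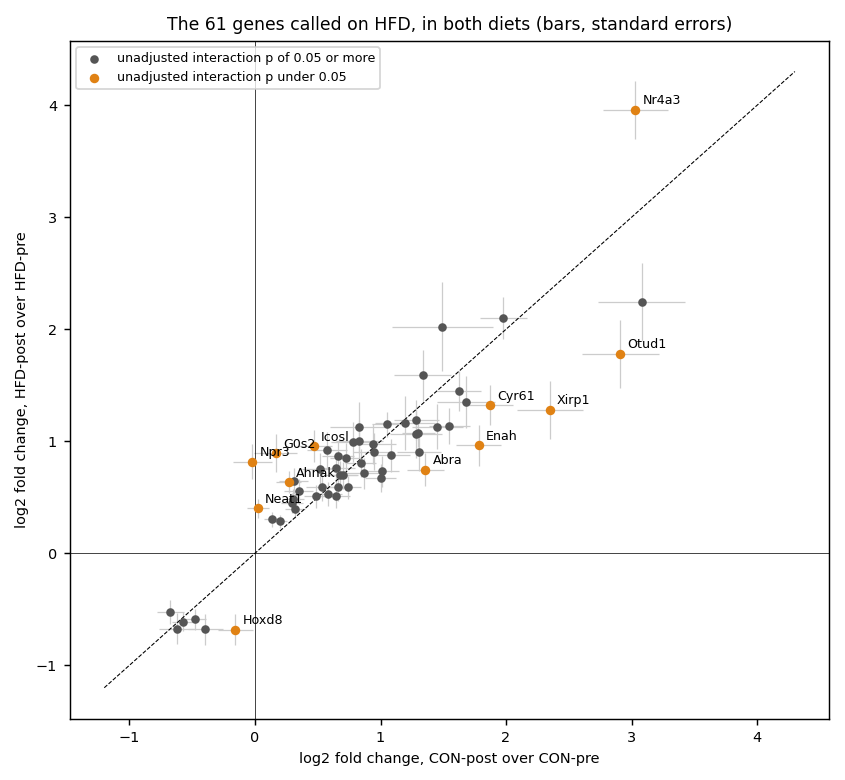
Log2 fold change on CON (horizontal axis) and on HFD (vertical axis) of the 61 genes called on HFD, with bars for standard errors and a dashed line of equal change. Orange points are the 12 genes with an unadjusted interaction p under 0.05, of which Nr4a3 lies above the line and Otud1, Xirp1 and Enah below it.

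Several genes of the core set were called on CON and not on HFD, with an unadjusted interaction p under 0.05 and no adjusted call for the interaction. For Pdk4 the log2 change was 1.38 on CON (interaction -0.94, -1.57 to -0.31), with means of 207 ± 66.5 FPKM in CON-pre, 316 ± 61.1 in HFD-pre, 518 ± 36.3 in CON-post and 433 ± 108 in HFD-post. Fos changed by a log2 of 1.79 on CON (interaction -1.43, -2.42 to -0.44) and Klf5 by 1.14 (interaction -0.83, -1.38 to -0.28). Cited2 changed by 1.03 on CON (interaction -0.87, -1.38 to -0.36), Dusp10 by 0.87 (interaction -0.77, -1.22 to -0.31) and Ucp3 by 0.87 (interaction -0.59, -1.07 to -0.11). A smaller change on HFD follows from this choice. Of the other core genes called on CON and not on HFD, Jun, Egr1, Trim63, Hspa1a and Hspa1b had unadjusted interaction p of 0.165 to 0.623 in limma. The next 8 genes were picked by their interaction p, so that large interactions follow in part from the choice. Each had a limma adjusted p of 0.926 for the interaction. The 8 genes with the lowest interaction p were Tacc2 (-0.58, -0.82 to -0.34), Ifitm1 (1.87, 1.05 to 2.69), Acot2 (-0.98, -1.44 to -0.53), Rnf113a1 (-1.10, -1.63 to -0.58), Ifrd1 (-0.81, -1.21 to -0.41), Dhcr7 (0.65, 0.32 to 0.98), Zfp28 (0.64, 0.32 to 0.96) and Rpl34-ps1 (2.94, 1.45 to 4.43), the last a pseudogene and Acot2 a near copy of Acot1, so that their values are uncertain.

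Markers of other tissues were read beside these results. The median of the 12 slow-fibre and cardiac markers was -0.036 without HFD-post 1 and 0.69 with the adipocyte score as covariate, and the fit with their own score was left aside. They had a summed level of 321.8 to 648.9 FPKM in HFD-pre and 359 to 982.1 FPKM in HFD-post. Of 6 tested erythroid markers 5 were higher (median 0.46), and the 6 neutrophil markers were all lower (median -0.56), with 0 DEG in both. The erythroid median was 0.16 without HFD-post 2 and 0.75 without HFD-post 1, and the neutrophil median -1.65 without HFD-post 2 and -0.013 without HFD-pre 4. S100a8, a neutrophil protein, was listed at 0 in 1 HFD-pre and 2 HFD-post libraries. Krt5, a keratin of skin, was listed at 0 in all HFD libraries but HFD-post 3. The 10 macrophage and the 10 fibroblast and tendon markers had medians of 0.05, which changed sign under some alternatives (-0.156 to 0.239 and -0.022 to 0.219). The part of these cell types in the response was not tested beyond the fits with an adipocyte or a slow-fibre score as covariate, and the slow-fibre fit gave 57 DEG, 52 of them among the 61.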

How the data were processed

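Polyadenylated RNA of quadriceps was sequenced by the authors from 16 mice, 4 for each combination of diet (CON or HFD) and state (pre or post), with stranded libraries checked with FastQC. Per the labels, reads were aligned with TopHat to mm9 and expression was estimated with Cufflinks, and tool versions and the strand setting are not given in the sources used here. The authors deposited the estimates as FPKM in 1 table with a column for each library, so read counts and the precision of single values are not known, and no count model was used. Relative depth was estimated from genes of at most 0.5 FPKM. Columns of sample values left out numbered 0.

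Of 24487 entries, 27 with names that had become dates (0.0771% of FPKM) were left out and 260 symbols in several entries were summed, giving 23970 symbols, of which the 11256 averaging 0.5 FPKM or more were tested. A listing at 0 in some HFD library was found for 16 symbols that averaged 5 FPKM or more. limma 3.58.1 in R 4.3.3 was fitted to log2(FPKM + 0.5) with a mean-variance trend and 4 group means over the 16 libraries, which are separate mice. p-values were Benjamini-Hochberg adjusted over all genes tested at a threshold of 0.05. The contrasts were HFD-post against HFD-pre, CON-post against CON-pre and their interaction. A gene whose groups do not overlap has an exact two-sided permutation p of 0.0286, the smallest that 70 splits of 4 against 4 allow. The code was tested on simulated data.

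The 24 pathway and 14 marker lists and the comparison itself were chosen with earlier results of these data known. Genes named were the 15 largest rises and 10 largest falls among non-overlapping DEG (only 6 fell), DEG of the lists, 33 core genes whatever their values, the 8 lowest interaction p, and the 5 largest positive and negative interactions among DEG. Members of lists that are named without being DEG were picked after their values were seen. The DEG Ahnak and Neat1 are described as well, although this rule does not select them. Il6 and Nr4a2, of the core genes, lay below the minimum. The values of some genes that this rule selects are not reported here. Copies with shared sequence (Hspa1a and Hspa1b, Mt1 and Mt2, Acot1 and Acot2, Amd1 and Amd2, haemoglobins, pseudogenes) are uncertain. Promoters are from RefSeq GRCm38.p6, found for 46 of 61 DEG. All 692 loci whose positions the study prints overlapped genes of that build and 114 overlapped those of mm9, and the expression table itself holds no coordinates. Alternatives were pseudocounts of 0.1 and 1, no filter, a minimum mean of 1 FPKM, scaling by quantiles, the upper quartile or the median of ratios, only the groups compared, no trend, array weights, a replicate block, adipocyte and slow-fibre scores as covariates, symbols in several entries left out, an adjusted p under 0.1, and each library left out. Tables were made in Python 3.11.15 (pandas 2.3.3, numpy 2.4.6) and figures with matplotlib 3.10.9.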

Additional observations from a re-analysis of the deposited data

Results flagged for a closer look

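Within groups of 4 libraries, 7 values of the 134 groups looked at stood apart from the other 3 by Dixon's test, where chance alone marks about 1 group in 20. Ppargc1a was lowest in HFD-pre 4 (4.18 FPKM, the others 4.84 to 4.90). HFD-post 2 was highest for Btg2 (11.7 FPKM, the others 8.25 to 8.63) and for Angptl4 (14.9 FPKM, the others 7.46 to 8.39). HFD-post 1 was lowest for Timp3 (50.3 FPKM, the others 62.2 to 63.4) and for Abra (108 FPKM, the others 166 to 177). Mef2c was lowest in HFD-post 3 (82.0 FPKM, the others 92.9 to 94.6). Rpl34-ps1, a pseudogene with a mean of 0.618 FPKM in CON-pre, was close to 0 in HFD-pre. HFD-pre 4 was the highest of that group (0.0009 FPKM, the others 1.44e-07 to 0.000136).

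Zfp28, a zinc finger gene, was higher in every HFD-post than in every HFD-pre library and lower in every CON-post than in every CON-pre library. The interaction was 0.64 on the log2 scale, which did not pass the adjusted threshold, and 2 of all genes tested had such opposite responses without overlap. The number that chance alone would give was not worked out, so the 2 genes are no excess. Zfp28 averaged 0.616 FPKM over the 16 libraries, close to the minimum of 0.5 FPKM. Zfp28 measured 0.541, 0.451, 0.508 and 0.593 FPKM in HFD-pre 1 to 4 and 0.734, 0.703, 0.654 and 0.849 FPKM in HFD-post 1 to 4.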

How the results depend on the processing

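Of the values tried for named genes, 1811 kept their direction and side of the threshold, 238 fell short of it, 8 passed it and 9 reversed, all of them in genes that were not DEG. The log2 difference of Nr4a1 was -0.094 with the adipocyte score as covariate, and with 1 library left out in turn it ran from -0.042 to 0.242 for Nr4a1, -0.381 to 0.089 for Junb, -0.154 to 0.095 for Per1 and -0.005 to 0.393 for Trp63. The 61 DEG (55 higher and 6 lower) became 25 with the adipocyte score as covariate (20 higher), 37 without a filter (34 higher and 3 lower) and 93 at an adjusted p under 0.1 (13 lower). The higher DEG numbered 33 with only the groups compared. The lower DEG numbered 13 with median-of-ratios scaling, 20 with quantile and 20 with upper-quartile scaling, and 2 without a trend. With each of the 16 libraries left out in turn, DEG numbered 21 to 78, higher DEG 18 to 70, lower DEG 2 to 9, CON calls 88 to 187 and interaction calls 0 to 1. The 125 CON calls became 72 with only the groups compared and 208 at an adjusted p under 0.1. The cause of these changes was not tested, except that left-out libraries and groups leave fewer samples. The replicate numbers of the labels were used as a block in 1 alternative, which gave 14 DEG (14 higher and 0 lower). The same-numbered HFD-pre and HFD-post libraries deviated together with correlations of 0.06, -0.05, 0.12 and -0.18. The main fit used no pairing by number, and whether the numbers mark a shared batch was not tested. FPKM carry no depth, which limits what can be said of genes near the minimum.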

Other observations

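Of the 61 DEG, 25 fell outside the rule by which genes were named, and the following were picked from these after their values were seen. Slc38a2, the neutral amino acid transporter SNAT2, rose from 30.6, 23.9, 26.4 and 24.1 FPKM in HFD-pre 1 to 4 to 37.01, 47.8, 43.9 and 39.7 FPKM in HFD-post 1 to 4 (log2 fold change 0.67 ± 0.12, limma adjusted p = 0.0213). Impact, an inhibitor of the amino acid sensor GCN2, rose from 4.15, 4.68, 3.99 and 5.26 FPKM to 6.44, 14.7, 11.7 and 8.697 FPKM (1.06 ± 0.21, adjusted p = 0.0299). Mknk2, a kinase of the cap-binding factor eIF4E, rose from 68.2, 53.7, 64.5 and 68.5 FPKM to 86.8, 121, 88.8 and 90.5 FPKM (0.59 ± 0.12, adjusted p = 0.0402), and Mars, the methionyl-tRNA synthetase, from 17.4, 15.8, 16.3 and 16.7 FPKM to 20.5, 21.7, 18.99 and 20.96 FPKM (0.30 ± 0.07, adjusted p = 0.0485). With 1 library left out in turn, these calls were lost in 5, 6, 11 and 15 of 16 fits for Slc38a2, Impact, Mknk2 and Mars.

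A further 5 of them are given singly. Aqp1, the water channel of capillary endothelium, rose from 76.1, 78.05, 77.7 and 81.3 FPKM to 119, 120.3, 108 and 99.7 FPKM (0.51 ± 0.10, limma adjusted p = 0.0305), and Kcnj8, the pore of vascular ATP-sensitive potassium channels, from 3.64, 4.09, 3.02 and 4.33 FPKM to 7.11, 6.06, 5.84 and 5.65 FPKM (0.65 ± 0.12, adjusted p = 0.0198). Vgll2, a muscle cofactor of TEAD factors, rose from 12.1, 12.7, 12.1 and 14.2 FPKM to 29.9, 26.4, 22.2 and 24.3 FPKM (0.98 ± 0.18, adjusted p = 0.0221), and Rbm20, which splices titin, from 9.92, 10.2, 9.09 and 8.17 FPKM to 13.7, 14.6, 13.1 and 13.2 FPKM (0.53 ± 0.11, adjusted p = 0.0347). All 4 had no overlap between resting and exercised muscles, and lost their calls in 5 to 9 of 16 fits with 1 library left out. Pdxk, the kinase that makes active vitamin B6, rose from 1.89, 1.87, 1.73 and 2.15 FPKM to 2.64, 4.73, 3.87 and 4.45 FPKM (0.85 ± 0.13, adjusted p = 0.0047) and kept its call with each library left out.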
